A study of Arabidopsis thaliana with 24 samples.

Results

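Transcripts that rose in roots but not in leaves when iron was withheld are described here for Arabidopsis thaliana, as 66 probe sets of the 17810 non-control probe sets in the deposited ATH1 array table. They were chosen by the iron response of the wild type alone. The mean of the Col root arrays had to be at least 1 higher on a log2 scale without iron than with it, and the same difference in Col leaves had to lie between -0.5 and 0.5. Probe sets of 15 listed genes were left out by name, which removed 10 that met both limits. In all, 105 probe sets rose by 1 or more in Col roots. Besides the 66 members and the 10 left out, 28 also rose past the limit in Col leaves and 1 fell past it there. A single gene was named for 22 members, several genes for 2 and none for 42, and members without a single named gene are given by their probe set.

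The groups were roots and leaves of rglg1 rglg2, in which 2 related genes of the RING-domain ubiquitin ligase family are mutated, and of the wild-type ecotype Col, each on -Fe and on +Fe medium. Plants grew at 21 °C in continuous light. At an age of 10 days they were given 3 days on medium with 100 µM of ferrozine, a pyridyl diphenyl triazine sulfonate that binds iron (-Fe), or with 40 µM FeEDTA (+Fe). The plants were sampled at 13 days. There were 8 groups with 3 arrays in each, labelled biological replicates, or 24 arrays in total. How many plants were pooled for an array is not given in the sources used here. Both tissues are whole organs, and in such bulk samples fewer cells of a type and less RNA per cell cannot be told apart. No probe set named RGLG1 or RGLG2 alone, so the transcripts of the mutated genes were not analysed here.

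Arabidopsis roots take up iron by acidifying the soil, reducing ferric iron at the cell surface and importing ferrous iron, and they secrete coumarins that mobilise iron. These steps are switched on in the root when iron runs short, under basic helix-loop-helix transcription factors that include FIT. Leaves have no such uptake from soil, and their part in the response includes regulators and mobile signals that act across the plant.

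The deposited values are log2 signals from which the median over the 24 arrays was already subtracted for each probe set. Only differences between arrays can therefore be read, and no level is compared between genes. Replicates correlated across probe sets at 0.933 to 0.984 in the 4 root groups. In mutant leaves, replicate 3 stood apart on both media, at 0.852 to 0.905 with the other replicates, against 0.956 (-Fe) and 0.967 (+Fe) between replicates 1 and 2. Leaf results are therefore also given without that replicate. Tissue labels were checked on the 4 of 20 listed green-tissue genes that a probe set names alone, among them RCA (Rubisco activase) and PSAN (a photosystem I subunit). All 4 were lower in mutant roots than in mutant leaves on +Fe, by 4.20 to 4.77 log2 units. The root hair expansins EXPA7 and EXPA18 were 4.91 and 5.41 log2 units higher in mutant roots than in mutant leaves.

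The Col values that chose the members are given as a description. The Col root difference had a median of 1.36 and a highest value of 6.95 (253502_at), and the Col leaf difference had a median of 0.04. Just inside the root limit were AT3G47040 and AT4G22980 at 1.01 each and 245173_at at 1.02. Just outside it were 251125_at at 0.98, and AT2G20030 and 245945_at at 0.96 each. At the upper leaf limit the nearest members were 256968_at at 0.41, and 245173_at and AT4G22980 at 0.40 each. The nearest probe sets beyond it were 258277_at at 0.60, AT5G02580 at 0.71 and AT1G74770 at 0.72. At the lower leaf limit the nearest members were AT4G33666 at -0.40, 262655_s_at at -0.34 and 246847_at at -0.33, and 252502_at lay beyond it at -0.58.

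The mutant arrays took no part in the choice, and they show the root response of nearly all members. In mutant roots 61 of the 66 members rose on -Fe relative to +Fe (limma, adjusted p under 0.05), and none of the 66 fell. Of all probe sets, 2.87% rose and 4.24% fell in the same comparison. The median log2 change of the members was 1.26, with quartiles of 0.95 and 1.85 and a range of 0.09 to 7.42, beside a median of -0.0003 over all probe sets. The rise was at least 1 log2 unit in 47 members and in 0.584% of all probe sets. All 3 -Fe arrays lay above all 3 +Fe arrays in 63 members and in 14.4% of all probe sets. Of the 50 probe sets with the largest rise in mutant roots, 22 were members. A further 18 were among the 28 that also rose in Col leaves, and 9 were among the 10 left out by name.

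**Figure D1:**
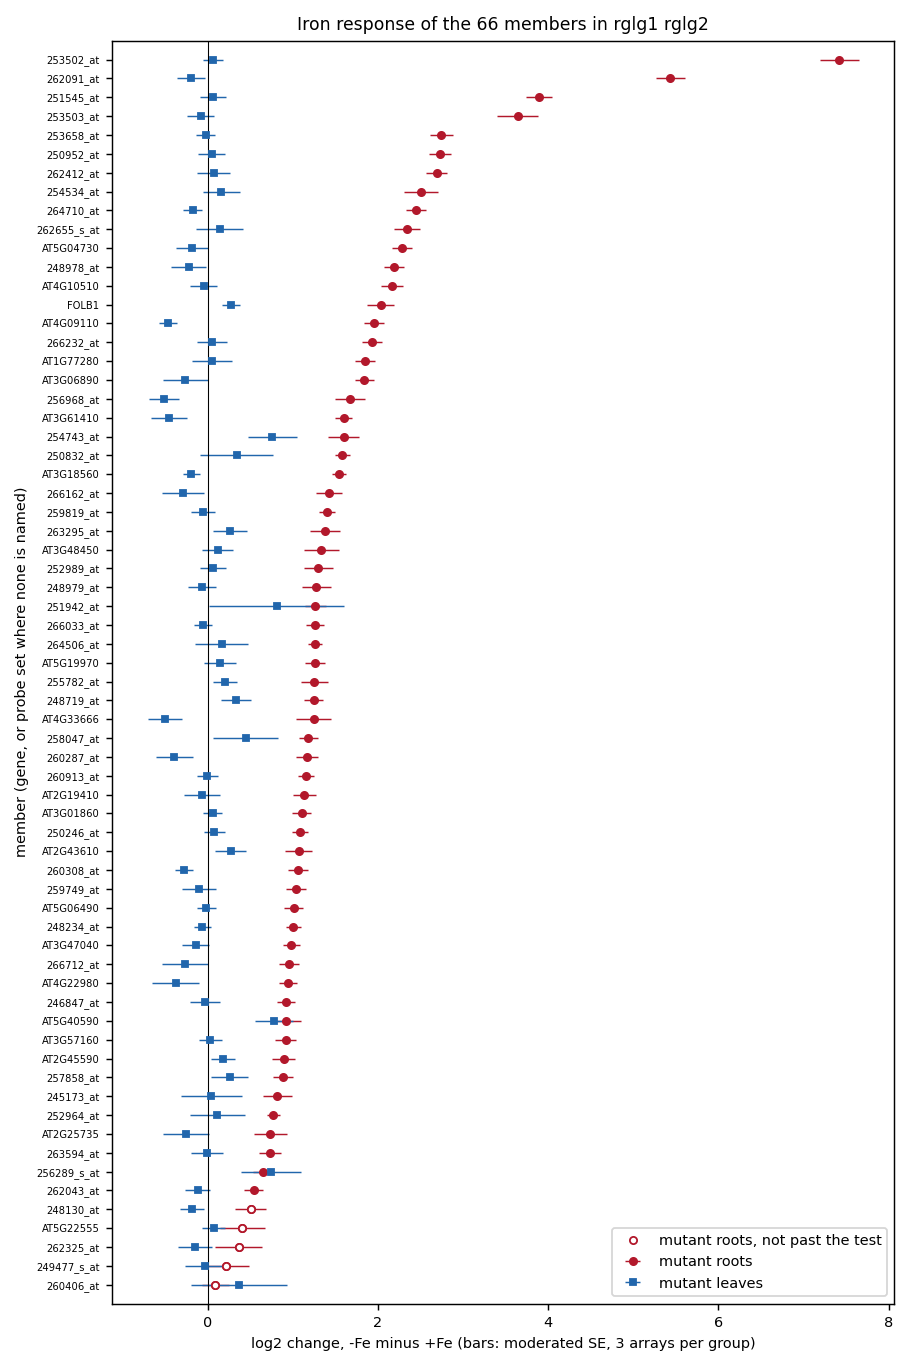
Log2 change (-Fe minus +Fe, x axis) of each of the 66 members in mutant roots (red) and mutant leaves (blue), ordered by the root change; points are differences of 3-array means, bars are moderated SE, and open circles are the 5 members not past the test in roots. The root changes spread from 0.09 to 7.42, while the leaf changes lie between -0.51 and 0.81.

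The largest changes were on probe sets for which no gene is named. Probe set 253502_at had values of 7.74, 7.81 and 7.86 in mutant roots on -Fe, against 0.02, 0.15 and 0.98 on +Fe. Its rise of 7.42 ± 0.23 log2 units (SE), which is 171-fold, was the largest of all 17810 probe sets in mutant roots; after quantile normalization of the arrays it was 5.96. Probe set 262091_at had 5.29, 5.47 and 5.48 on -Fe, against -0.20, 0.15 and -0.03 on +Fe in mutant roots. The groups did not overlap on either probe set, and the mutant leaf arrays stayed between -0.40 and 0.41 on both. After quantile normalization the rise of 262091_at was 4.55, instead of 5.44. Probe sets 251545_at, 254534_at and 250952_at, next in the order of the Col root difference, rose by 3.89, 2.51 and 2.73 in mutant roots, and the first of them by 3.03 after quantile normalization. In mutant roots 253503_at, 253658_at and 262412_at, singled out after their values were seen, rose by 3.64, 2.75 and 2.69. For 251545_at, 254534_at and 250952_at, the mutant roots on +Fe already lay above the mutant leaves by 3.12, 3.97 and 3.07 log2 units, whereas this difference was 0.60 for 253502_at and -0.06 for 262091_at.

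Among the members with a single named gene, 21 of 22 rose in mutant roots. The strongest was AT5G04730, a protein of the ankyrin-repeat family, with 2.95, 3.13 and 3.02 in mutant roots on -Fe, against 0.82, 0.91 and 0.52 on +Fe. Its change was 2.28 ± 0.11 log2 units, or 4.87-fold (limma, adjusted p = 6.86e-09). The subtilase-family protease AT4G10510 had 2.74, 2.71 and 2.61 on -Fe, against 0.43, 0.81 and 0.32 on +Fe in mutant roots. Every -Fe array was well above every +Fe array for both genes, and the change of AT4G10510 was 2.17 ± 0.13 (adjusted p = 4.48e-08).

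FOLB1 encodes a dihydroneopterin aldolase, an enzyme of folate synthesis. It had -0.01, 0.23 and 0.05 in mutant roots on -Fe, against -2.0, -1.68 and -2.15 on +Fe. The rise was 2.03 ± 0.16 log2 units, or 4.09-fold (adjusted p = 1.51e-06). In mutant leaves the same gene had 0.10, 0.32 and 0.27 on -Fe, against -0.08, -0.06 and 0.01 on +Fe. The +Fe roots thus held the lowest values of the mutant, and the -Fe roots lay close to the leaves, with a mean 0.14 below that of -Fe leaves.

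Genes of ubiquitin ligase and protein kinase families were also among the members. The RING-finger proteins AT4G09110 and AT5G06490, both of the ATL family of ubiquitin ligases, rose by 1.95 ± 0.12 and 1.01 ± 0.11 log2 units in mutant roots. AT4G09110 had 2.23, 2.22 and 2.42 on -Fe, against 0.14, 0.48 and 0.38 on +Fe. The kinases AT1G77280, AT2G19410 (with a U-box) and AT2G45590 rose by 1.85 ± 0.12, 1.14 ± 0.14 and 0.89 ± 0.13. Of these, AT1G77280 had 2.62, 2.53 and 2.66 on -Fe, against 0.60, 0.66 and 1.0 on +Fe in mutant roots. The media did not overlap in any of these 5 genes.

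Other named members belong to enzyme and cell-wall families. AT2G43610, of the chitinase family, had 3.95, 3.98 and 3.87 in mutant roots on -Fe, against 3.00, 2.70 and 2.89 on +Fe, a rise of 1.07 ± 0.16. AT3G47040, a family 3 glycosyl hydrolase, rose by 0.98 ± 0.10, and AT4G22980, a protein similar to molybdenum cofactor sulfurases, rose by 0.94 ± 0.11. AT3G48450, of the RIN4/NOI family named after a regulator of plant immunity, rose by 1.34 ± 0.20. AT5G40590, with a cysteine- and histidine-rich C1 domain, had 3.44, 3.24 and 3.20 on -Fe, against 2.31, 2.37 and 2.44 on +Fe in mutant roots, a rise of 0.92 ± 0.17. Each of these 5 genes passed the test, with -Fe arrays above +Fe arrays throughout.

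Of the named members to which no role is given here, AT3G06890, AT3G61410 and AT3G18560 rose most, by 1.84 ± 0.11, 1.60 ± 0.10 and 1.54 ± 0.08 log2 units in mutant roots. AT3G18560 had 2.56, 2.43 and 2.59 on -Fe, against 0.94, 0.94 and 1.07 on +Fe, among the tightest replicates of the named members. AT5G19970, AT4G33666, AT3G01860 and AT3G57160 rose by 1.26, 1.25, 1.10 and 0.92. AT2G25735 had -0.94, -0.90 and -0.95 on -Fe, against -1.23, -1.84 and -1.91 on +Fe in mutant roots, a rise of 0.73 ± 0.19 (adjusted p = 0.0366). That call was lost in 5 of the 6 fits that left out 1 mutant root array, all but the one without +Fe replicate 1, with adjusted p up to 0.160.

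**Figure D2:**
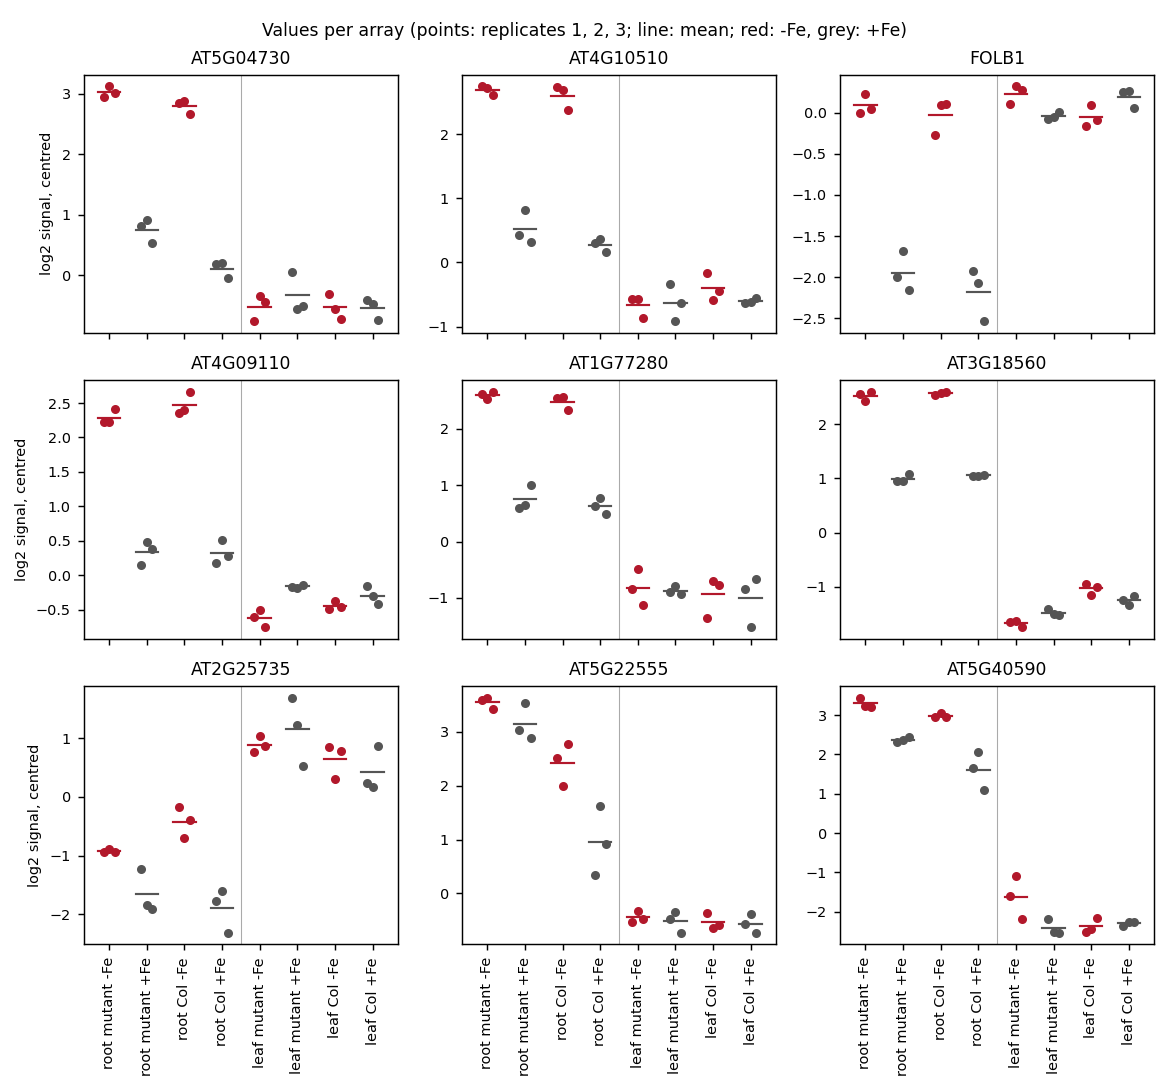
Centred log2 signal (y axis) of 9 named members on each of the 24 arrays, by tissue, genotype and medium (x axis); red points are -Fe arrays, grey points +Fe arrays, and lines the means of 3. In AT5G04730 the -Fe roots reach 2.95 to 3.13 in the mutant, against 0.52 to 0.91 on +Fe, while in AT5G22555 the mutant roots are high on both media.

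The 5 members that did not pass the test in mutant roots were 248130_at at 0.51, AT5G22555 at 0.41 ± 0.27, 262325_at at 0.36, 249477_s_at at 0.21 and 260406_at at 0.09 (adjusted p of 0.116, 0.385, 0.465, 0.690 and 0.782). In 3 of them the mutant roots were high on +Fe already. AT5G22555 had 3.60, 3.64 and 3.43 in mutant roots on -Fe, against 3.03, 3.53 and 2.88 on +Fe, whereas Col roots had 2.51, 1.99 and 2.77 on -Fe, against 0.33, 1.63 and 0.91 on +Fe. Every mutant +Fe root array thus lay above every Col root array of either medium for this gene. Probe set 262325_at had 2.34, 2.52 and 2.36 in mutant roots on -Fe, against 2.15, 1.75 and 2.22 on +Fe. The +Fe values of Col roots on it were -0.20, 0.18 and 0.03. Probe set 249477_s_at, which stands for the germin-like cupins AT5G38940 and AT5G38930 together, had 1.41, 1.34 and 0.76 in mutant roots on -Fe, against 0.98, 1.08 and 0.81 on +Fe, and -2.35, -1.0 and -1.76 in Col roots on +Fe. In all 3, the Col +Fe roots were the lowest of the root groups. Probe set 260406_at differed from them: mutant roots had 0.01, 0.04 and 0.25 on -Fe, against -0.03, 0.08 and -0.02 on +Fe, and among roots only those of Col on -Fe were high, at 0.87, 1.54 and 0.87.

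Across all members, the mutant root change was below the Col one in 47 and above it in 19. The difference between genotypes (mutant minus Col) had a median of -0.14 and a range of -2.37 to 1.09 log2 units. It was more than 0.5 below 0 in 10 members and more than 0.5 above 0 in 2. The highest was 253503_at, with 3.90, 2.76 and 3.59 in mutant roots on -Fe, against -0.20, -0.25 and -0.22 on +Fe. Col roots had 2.06, 2.88 and 2.45 on -Fe, against 0.10, -0.10 and -0.25 on +Fe. These genotype differences were not tested, because the Col arrays chose the members. A choice by a high Col change favours mutant changes below the Col ones, so no genotype effect is read from the 47 and 19.

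**Figure D3:**
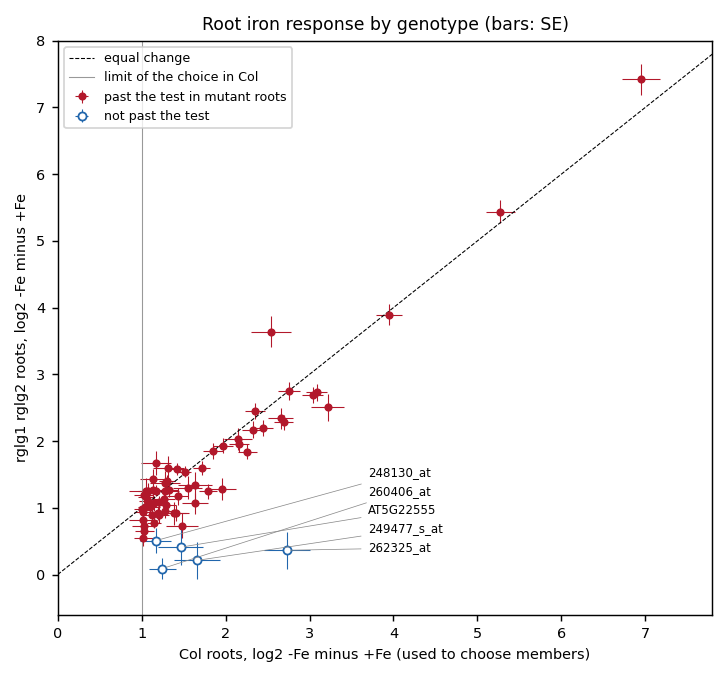
Log2 root change (-Fe minus +Fe) of each member in mutant roots (y axis) against Col roots (x axis, the values that chose the members); bars are SE from 3 arrays per group and the dashed line marks equal changes. Of the 66 points, 47 lie below the line and 19 above it, and a choice by a high Col change favours points below it. The 5 blue open circles did not pass the test in mutant roots.

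In mutant leaves none of the 66 members was called by limma, where 0.427% of all probe sets were called in either direction. At an unadjusted p under 0.05 there were 7 members, beside 8.41% of all probe sets. Of the 7, 3 were higher and 4 lower, beside 2.91% and 5.5% of all probe sets. All 3 -Fe leaf arrays lay above all 3 +Fe arrays in 3 members (4.3% of all probe sets) and below them in 6 (7.43% of all probe sets). The median change of the members was -0.0043, beside -0.03 over all probe sets. The change lay within 0.5 of 0 in 60 members, which is 90.9%, against 96.7% of all probe sets. The share of the members was thus below that of all probe sets, and their changes ranged from -0.51 to 0.81. AT4G09110 had -0.62, -0.51 and -0.75 in mutant leaves on -Fe, against -0.18, -0.18 and -0.14 on +Fe (change -0.46 ± 0.11, adjusted p = 0.131). The leaf values of this gene did not overlap and ran opposite to its roots, but it was called only with all 24 arrays in 1 fit (adjusted p = 0.0472) and with array weights (-0.37, adjusted p = 0.0166). AT5G40590 had -1.60, -1.09 and -2.18 in mutant leaves on -Fe, against -2.18, -2.50 and -2.53 on +Fe (change 0.78 ± 0.22, adjusted p = 0.268). Replicate 3 was the low -Fe array, and without it the change was 1.06 (limma, adjusted p = 0.0135). Without replicate 3 on both media it was 0.99 (adjusted p = 0.0412). Probe set 256289_s_at, named because both of these fits called it, had 0.05, -0.05 and -1.58 in mutant leaves on -Fe, against -1.28, -1.04 and -1.49 on +Fe. Its change was 0.74 (limma, adjusted p = 0.596). It was 1.27 without -Fe replicate 3 (adjusted p = 0.00928) and 1.16 without replicate 3 on both media (adjusted p = 0.0264).

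The difference between the tissues was tested directly as the mutant root change minus the mutant leaf change, over 24 arrays. It was called higher in 46 of the 66 members and lower in none of them, where 1.13% of all probe sets were called higher and 0.719% lower. The root change exceeded the leaf change in 64 members, and the median difference was 1.21 log2 units, beside 0.04 over all probe sets. AT5G04730, AT4G09110 and AT4G10510 had differences of 2.47 ± 0.22, 2.42 ± 0.16 and 2.21 ± 0.21. For 15 members the root rise was called but the difference between tissues was not. They include AT2G43610 (0.80 ± 0.25, adjusted p = 0.114), AT2G45590 (0.71 ± 0.20, adjusted p = 0.0714) and AT5G40590 (0.14 ± 0.30, adjusted p = 0.863). With a replicate block within genotype, AT2G43610 and AT2G45590 passed (adjusted p of 0.0412 and 0.0361), and the count was 53. Leaving out 1 mutant array at a time gave 38 to 47 called members, and leaving out replicate 3 of the mutant leaves on both media gave 44. Over all probe sets, 117 to 672 were called higher without 1 array and 185 without that replicate, against 202 with all arrays. By comparison, the 28 probe sets that also rose in Col leaves had medians of 1.89 in mutant roots and 1.01 in mutant leaves, and their median difference between tissues was 0.40. The 10 probe sets left out by name had medians of 3.24 in mutant roots and 0.02 in mutant leaves.

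With iron supplied, the members were not uniformly root transcripts. On +Fe, 42 members were higher in mutant roots than in mutant leaves, 11 were lower and 13 were not called. Of all probe sets, 36.5% were higher and 31.3% lower. The 42 differed by 0.30 to 5.10 log2 units with a median of 2.35. AT2G43610 was 4.94 log2 units higher in mutant roots on +Fe, or 30.6-fold, and AT5G40590, AT5G19970 and AT5G22555 were 4.78, 3.68 and 3.66 higher. The 11 lower ones include AT2G25735 at -2.81, FOLB1 at -1.90, AT4G22980 at -1.61, AT2G45590 at -1.32 and AT4G33666 at -1.0. All 11 rose in mutant roots on -Fe, by 0.73 to 2.03. On -Fe the mean of mutant roots minus mutant leaves was between -1.82 and 0.75 in these 11, as a description. AT4G33666 had 0.31, 0.03 and 0.22 in mutant roots on -Fe, against -1.36, -0.83 and -0.99 on +Fe, and -1.12, -0.47 and -0.12 in mutant leaves on -Fe, against -0.03, 0.10 and -0.28 on +Fe. For this gene the roots were below the leaves on +Fe and above them on -Fe.

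**Figure D4:**
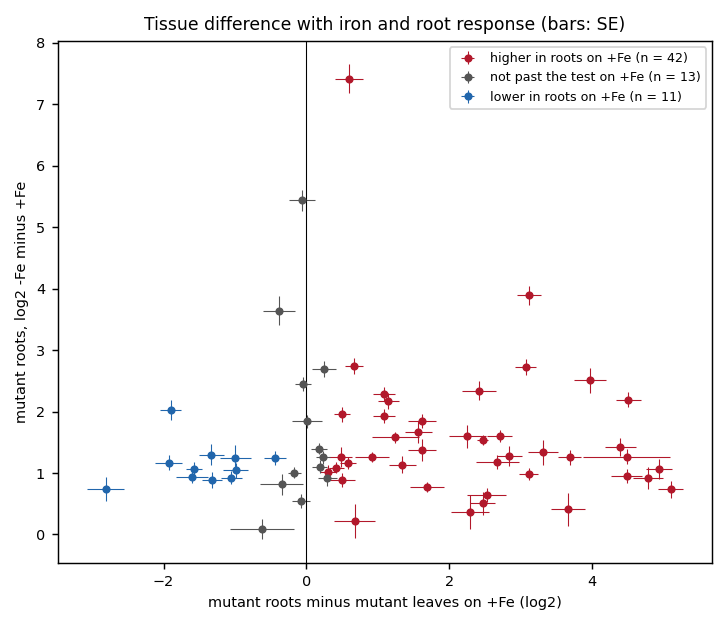
Log2 root change (mutant -Fe minus +Fe, y axis) of each member against the log2 difference between mutant roots and mutant leaves on +Fe (x axis); bars are SE from 3 arrays per group, and colours give the +Fe call. The 42 members higher in roots reach 5.10 on the x axis, and the 11 lower ones reach -2.81.

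None of the 22 members with a single named gene belongs to the lists of known iron genes, and whether any of the other 44 does is not known here. MTP8 of the uptake list, and S8H, BGLU42 and UGT72E1 of the phenylpropanoid and coumarin list, met both limits but were left out by name. The absence of listed genes among the named members was thus partly set by the choice. A listed locus counts as measured where a probe set names it alone, so other loci may lie on probe sets without a name. Of 30 loci for iron uptake and mobilisation, 2 were measured and both rose in mutant roots: MTP8, a vacuolar metal transporter, by 4.37 and the zinc-iron transporter family gene ZIP9 by 0.49. Of 19 iron regulators, 10 were measured on 11 probe sets. Of these 11, 6 rose in mutant roots (median over the list 1.11) and 4 rose in mutant leaves, beside 2.87% and 0.157% of all probe sets. The 4 were those of the transcription factors BHLH101 and PYE, the peptide IMA1 and 1 of the 2 for the ubiquitin ligase BTSL1. BHLH101 rose by 3.20 in mutant roots and 4.62 in mutant leaves. Of 22 phenylpropanoid and coumarin loci, 9 were measured. In mutant roots 6 of the 9 rose (median over the list 0.67), beside 2.87% of all probe sets. None was called in mutant leaves, where 0.427% of all probe sets were called in either direction. Of 15 copper and zinc loci, only the copper chaperone CCS was measured, and it rose by 0.56 in mutant roots. Of 11 jasmonate, wound and defence loci, only PDF1.2 was measured, at -0.15 (adjusted p = 0.701).

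Values of other cell types and of RNA ends that moved with the mutant root comparison are given beside it. All 4 measured green-tissue genes fell in mutant roots on -Fe, by 0.60 to 0.95 log2 units. Their mean per array was -3.04 to -2.84 on -Fe and -2.17 to -2.07 on +Fe in mutant roots. EXPA7 and EXPA18, 2 of 7 root hair genes, changed by 0.16 and 0.06 in mutant roots and were not called. None of the listed endodermis, suberin, root cap or stele genes was named alone by a probe set, though they may lie on probe sets without a name. The mean of 6 5′ control probe sets minus that of 6 3′ ones was 0.20 to 0.24 in mutant roots on -Fe, against -0.09 to 0.17 on +Fe. In mutant leaves it was -0.19 to -0.05 on -Fe, against -0.08 to 0.13 on +Fe. The part of these values in the members' changes was not tested.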

How the data were processed

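The deposited table holds log2 values per ATH1 probe set, made by the authors with RMA, per the submitters' processing notes. In the file each probe set has a median of 0 over the 24 arrays. Which arrays were normalized together, and when the centring was done, is not given in the sources used here. All 24 columns matched a sample, and 0 were left unmatched. After 44 control probe sets were removed, 17810 were tested with limma 3.58.1 in R 4.3.3 (lmFit, eBayes, 1 mean per group), checked on simulated data. Each tissue was fitted on its 12 arrays with 8 residual degrees of freedom, and contrasts between tissues on 24 arrays with 16. P-values are two-sided and Benjamini-Hochberg adjusted over all 17810 probe sets, with calls at an adjusted p under 0.05. The number of arrays limits the precision. Gene names come from the platform annotation, and 9822 of 9869 single-gene probe sets matched RefSeq's locus codes.

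The members and gene lists were chosen with earlier results of these data known. Named are all members with 1 named gene, the 5 other members with the largest Col root difference, the probe sets nearest each limit and list genes that a count needed. Any feature outside this rule was chosen after its values were seen, as were 256289_s_at, 248130_at, 262325_at, 249477_s_at and 260406_at. Alternatives were a replicate block, array weights, quantile normalization of the centred values, other sample sets and each array left out. Same-numbered mutant leaf arrays on -Fe and +Fe deviated together (r of 0.391, 0.435 and 0.599), and mutant root arrays did not (-0.003, 0.05 and 0). All values are from fits without a block unless a replicate block is named.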

Additional observations from a re-analysis of the deposited data

Results flagged for a closer look

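The iron response differed between mutant roots and mutant leaves, by a test of the difference itself (limma, adjusted p under 0.05), in 46 of the 66 members, beside 1.13% of all probe sets in that direction. Among the named members called, the root change minus the leaf change in log2 units was 7.36 for 253502_at, 5.63 for 262091_at, 3.83 for 251545_at, 2.68 for 250952_at and 2.34 for 254534_at. After quantile normalization it was 5.36 for 253502_at, 4.89 for 262091_at and 2.89 for 251545_at. It was 2.47 for AT5G04730, 2.42 for AT4G09110, 2.21 for AT4G10510, 2.1 for AT3G06890, 2.05 for AT3G61410, 1.80 for AT1G77280, 1.76 for FOLB1, 1.75 for AT4G33666 and 1.73 for AT3G18560. Below these it was 1.32 for AT4G22980, 1.22 for AT3G48450, 1.2 for AT2G19410, 1.13 for AT3G47040, 1.11 for AT5G19970, 1.04 for AT3G01860, 1.03 for AT5G06490 and 0.89 for AT3G57160.

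The calls of AT3G48450, AT4G22980 and AT2G19410 (limma, adjusted p of 0.0361, 0.0311 and 0.0213) were lost when any of several arrays was left out. In 12 fits that each left out 1 mutant array, AT3G48450 lost its call in 7 (adjusted p up to 0.0967), AT4G22980 in 7 (up to 0.0996) and AT2G19410 in 6 (up to 0.0654), with every value still above 0. All 3 lost it without mutant root -Fe replicate 2 or 3 and without mutant root +Fe replicate 1 or 2. AT3G48450 also lost it without mutant leaf -Fe replicate 2 or 3 or +Fe replicate 2. AT4G22980 also lost it without mutant root -Fe replicate 1 or mutant leaf +Fe replicate 1 or 2, and AT2G19410 without mutant leaf -Fe replicate 2 or +Fe replicate 1. With the mutant arrays alone, AT3G57160, AT2G19410 and AT4G22980 missed the threshold (adjusted p of 0.101, 0.104 and 0.106). With 3 arrays a group, no test for a single outlying value was run on the members.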

How the results depend on the processing

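Under the alternatives run in mutant roots, 261 to 2511 of all probe sets rose, against 511 in the main fit. The fewest were with all 24 arrays in 1 fit and the most with array weights. Of the members, 56 to 62 rose, with 62 under array weights. Their count was 59 to 61 when 1 array was left out and 56 with all 24 arrays in 1 fit. With a replicate block the count was 61 in mutant roots, 0 in mutant leaves, 46 for the difference between tissues and 53 between mutant roots and leaves on +Fe, and it changed no call of a named member in mutant roots or between tissues; within genotype, it added the calls of AT2G43610 and AT2G45590 between tissues. With the block set within genotype, the difference between tissues was called in 53 members, beside 336 of all probe sets called higher. Members called in mutant leaves numbered 0 to 2 when 1 array was left out and 2 without replicate 3 on both media. They numbered 1 with all 24 arrays in 1 fit and 7 with array weights, 5 of them higher and 2 lower. Array weights also called 721 of all probe sets higher and 822 lower in mutant leaves, against 28 and 48 in the main fit. The 7 members therefore do not show a leaf response particular to the members. The choice itself gave 62 to 74 members without 1 Col array, 49 with a leaf limit of 0.25 and 27 with a root limit of 1.5. The difference between tissues was called in 38 to 47 members without 1 array, beside 117 to 672 of all probe sets called higher. The +Fe tissue difference was called in 49 to 54 members when 1 array was left out. In those fits 6133 to 6450 of all probe sets were called higher and 5156 to 5518 lower. With array weights it was called in 57 members, beside 7506 of all probe sets called higher and 6229 lower. For AT5G40590 the difference between tissues of 0.14 turned to -0.25 with array weights, -0.073 without replicate 3 of the mutant leaves on both media and -0.14 without mutant leaf -Fe replicate 3, within a range of -0.14 to 0.41 when 1 array was left out. The cause was not tested. Of 351 values of the 27 named members in mutant roots, 344 kept direction and call, and the other 7 were lost calls of AT2G25735. Of 486 for the difference between tissues, 452 did, 24 lost a call, 7 gained one and 3 turned. Quantile normalization, which was run on the centred values, lowered the largest rises in mutant roots. It gave 5.96 instead of 7.42 for 253502_at, 4.55 instead of 5.44 for 262091_at and 3.03 instead of 3.89 for 251545_at. With 3 arrays a group and centred values, low signals near background could not be told from measured ones.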
